A study of Mus musculus with 18 samples.

Results

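The genes described here are 36 mouse genes of the pathway that runs from the IL-33 receptor to the transcription factor NF-kB, chosen by name: 12 signal adaptors and kinases, 5 NF-kB subunits, 9 inhibitors and feedback genes, and 10 target genes. They are 36 of 23284 gene symbols in the mouse tables, and 34 of them have a counterpart of the same name among 25548 symbols in the human tables. The mouse copies Bcl2a1b and Bcl2a1d share the human counterpart BCL2A1, which is listed here with the other pathway genes. The study sequenced RNA of 18 libraries in 6 groups of 3. Memory T helper 2 (Th2) cells of BALB/c mice, with high levels of the IL-33 receptor ST2, were cultured for 3 days with IL-2 alone (libraries 1, 3 and 5) or with IL-2 and IL-33 (libraries 2, 4 and 6), so both groups received IL-2. Eosinophils were cultured for 3 days without or with the growth factor amphiregulin, with the numbers 2, 3 and 4 in each group. Lungs came from OVA-treated BALB/c mice that were wild type or dGATA, labelled as a knock out and not spelled out further, numbered 1 to 3 in each group. There was no lung group without OVA, and the design text speaks of HDM (house dust mite) in place of OVA. The labels name BALB/c for the eosinophils too, but their tables list human genes, and they are read here as human. Nothing in the labels says that libraries of a group came from separate animals, donors or cultures, so the spread that each p-value rests on may be technical.

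IL-33 is an alarmin released by damaged barrier cells. It binds ST2 (gene Il1rl1) and the shared chain IL1RAP, and the receptor recruits the adaptor MyD88, the kinases IRAK4, IRAK1 and IRAK2, and the ubiquitin ligase TRAF6. TAK1 (Map3k7) then activates the IKK complex of Chuk, Ikbkb and Ikbkg, which marks the inhibitor IkB-alpha (Nfkbia) for destruction and frees NF-kB dimers to enter the nucleus. NF-kB turns on inflammatory and survival genes and also its own brakes, such as IkB-alpha and the deubiquitinase A20 (Tnfaip3). In Th2 cells and eosinophils this pathway is known as a driver of type 2 inflammation in the airway.

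Levels are in FPKM, which scales fragments by transcript length and by library size. Some libraries stood apart. Library pairs were compared over genes with 1 annotated transcript. The measure was the median squared log difference between 2 libraries, as a ratio to what counting alone gives. Over genes of 20 to 400 estimated reads, this ratio was 1.16 for Th2 libraries 1 and 3 (391 genes). For libraries 2 and 4 it was 1.24 (409 genes). The other pairs of one group lay between 3.40 and 4.41. Over genes of 400 to 3000 reads the ratios were 2.03 and 6.5 for those pairs and 14.9 to 21.4 for the others, so the close pairs also differed by more than counting noise there. Libraries 1 and 3, and 2 and 4, were therefore far closer to each other than to libraries 5 and 6, whose titles also spell the cell name differently and whose estimated depths were the lowest, 8684000 and 9569000 reads against 12982000 to 17369000. Each Th2 result is given with all 6 libraries as separate samples, and for the members the text adds, where it changes a call, the value with libraries 5 and 6 as a batch term and the value with each close pair averaged into 1 sample, which leaves 2 against 2. The lungs had 17130000 to 29825000 estimated reads, and no absolute depth was estimated for the eosinophils. Among them dGATA library 1 stood apart for the members, as given with the lung results.

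In the Th2 cells, 1 target gene fell with IL-33 and 2 feedback genes rose under every alternative in which they were tested. How many of all genes kept a call under every alternative was not counted. With the close pairs averaged, 7.33% of all genes were called higher and 6.55% lower. The lymphotoxin gene Lta fell most among the members, from a mean of 153 ± 117 to 17.0 ± 5.31 FPKM (SD, n = 3 each). The A20 gene Tnfaip3 rose from 51.7 ± 8.38 to 122 ± 30.2 FPKM, and the IRAK-M gene Irak3 rose from 1.48 ± 0.467 to 5.99 ± 2.67 FPKM. In bulk RNA, fewer cells of a type and less RNA per cell cannot be told apart. Of 36 members, 35 passed the filter on low values. By limma, 4 were called higher (Tnfaip3, Irak3, Bcl3 and Traf6) and 11 lower (Lta, Ltb, Rel, Bcl2a1b, Icam1, Bcl2a1d, Nfkb1, Myd88, Tnip2, Ikbkg and Chuk). That is 42.9% of the tested members, beside 42.1% of all 10296 genes tested (16.3% higher and 25.7% lower), a share close to that of all genes. The groups did not overlap for 17 of 35 members, beside 56.7% of all genes. The median log2 difference of the members was -0.26, and that of all genes -0.11. With median-of-ratios scaling, the median of all genes was -0.01 and that of the members -0.16, and 4 members were called higher and 8 lower, beside 20.5% and 19.3% of all genes. Under that scaling 51.5% of all genes called were higher, against 38.8% as deposited, and 55.6% after scaling to a common sum.

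By role, the counts stand beside 16.3% of all genes called higher and 25.7% lower, and the difference between roles was not tested. Among the 9 targets tested, 0 were called higher and 5 lower, with a median log2 difference of -0.95. Of the 5 subunits, 0 were called higher and 2 lower, with a median of -0.47. The 9 inhibitors and feedback genes had 3 called higher and 1 lower, with a median of -0.13. The 12 adaptors and kinases had 1 called higher and 3 lower, with a median of -0.17. With the batch term, 5 members were called higher and 19 lower, beside 20.9% and 35.6% of all genes. With the close pairs averaged, 2 were called higher (Tnfaip3 and Irak3) and 1 lower (Lta), beside 7.33% and 6.55% of all genes. With both, 3 were called higher and 11 lower, beside 12.6% and 17.7%.

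**Figure D1:**
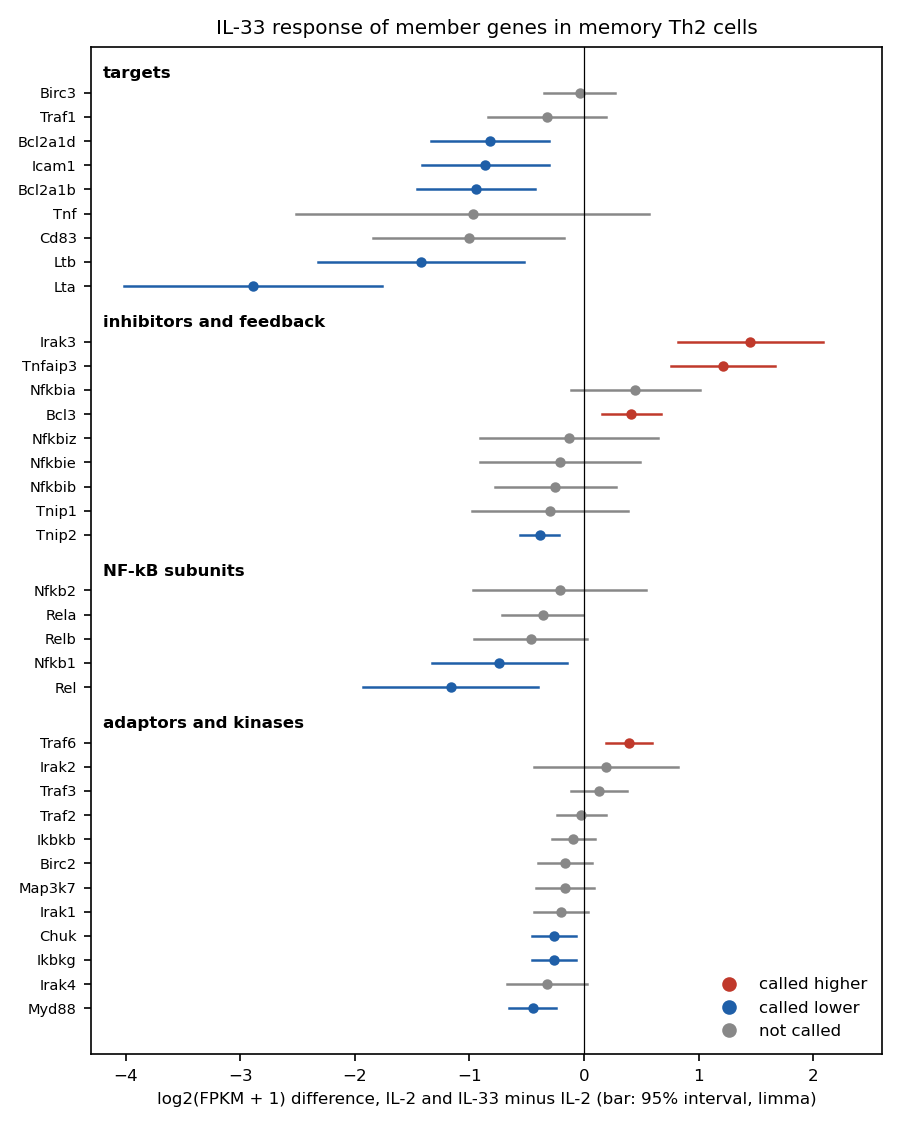
Log2(FPKM + 1) difference between Th2 cells with IL-2 and IL-33 and with IL-2 alone (x axis) for the 35 members tested, grouped by role (y axis). Points are limma estimates from 3 libraries per group and bars their 95% intervals; red and blue points are the 4 members called higher and the 11 called lower, and all 9 targets lie below 0 (Birc3 lies above 0 with median-of-ratios or common-sum scaling).

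Sequences upstream of 4 members are shown because 1 of these genes was called higher with IL-33 (Tnfaip3), 2 lower (Rel and Ltb) and 1 not called (Nfkbia), and each holds a match to the kappaB consensus motif, the DNA element bound by NF-kB dimers. Each is the stretch of 250 bases before the start site in RefSeq (GRCm38.p6), 5′ to 3′ on the gene's strand, with the matches in capitals. The Tnfaip3 stretch is chr10:19015411-19015660 on the minus strand. The Nfkbia stretch is chr12:55492648-55492897 on the minus strand. The Rel stretch is chr11:23770970-23771219 on the minus strand, and the Ltb stretch is chr17:35194257-35194506 on the plus strand.
Tnfaip3: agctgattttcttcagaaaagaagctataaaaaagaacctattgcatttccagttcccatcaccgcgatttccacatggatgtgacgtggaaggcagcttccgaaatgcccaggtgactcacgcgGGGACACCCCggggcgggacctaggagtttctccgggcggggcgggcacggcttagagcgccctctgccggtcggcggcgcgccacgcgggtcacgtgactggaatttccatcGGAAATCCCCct
Nfkbia: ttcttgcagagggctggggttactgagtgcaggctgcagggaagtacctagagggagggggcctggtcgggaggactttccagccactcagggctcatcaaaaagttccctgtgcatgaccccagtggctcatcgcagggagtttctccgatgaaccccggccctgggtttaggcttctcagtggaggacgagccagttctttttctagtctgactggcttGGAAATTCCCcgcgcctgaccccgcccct
Rel: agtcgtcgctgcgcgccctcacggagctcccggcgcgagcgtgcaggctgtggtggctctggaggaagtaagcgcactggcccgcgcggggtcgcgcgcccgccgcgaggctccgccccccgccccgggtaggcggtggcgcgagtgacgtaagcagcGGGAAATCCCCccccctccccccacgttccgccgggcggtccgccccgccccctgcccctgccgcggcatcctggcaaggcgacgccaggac
Ltb: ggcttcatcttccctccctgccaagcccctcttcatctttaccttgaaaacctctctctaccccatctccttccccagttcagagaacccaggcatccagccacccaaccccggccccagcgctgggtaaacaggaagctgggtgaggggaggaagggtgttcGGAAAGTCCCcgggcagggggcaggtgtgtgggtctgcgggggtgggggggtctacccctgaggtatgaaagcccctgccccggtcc
In Tnfaip3 the matches begin at -125 and -12 from the start site shown, in Nfkbia at -29 and in Ltb at -87. Tnfaip3 has 2 start sites in the RefSeq table, of which 1, the one shown, had matches. In Rel, overlapping matches on both strands begin at -92 and -91. The motif was searched on both strands from 250 bases before to 50 after each start site in the RefSeq table, and overlapping matches were counted by position. It was found in 10 of the 31 members with an entry, 32.3%, and in 5.14% of all 27025 genes of the table. By role, it was in 2 of 11 adaptors and kinases, 2 of 3 subunits, 5 of 8 inhibitors and feedback genes and 1 of 9 targets. Because the members were chosen as NF-kB pathway genes, these shares describe the list.

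The targets included the 3 genes of the tumour necrosis factor and lymphotoxin cluster on chromosome 17, where 3085 bases separate Ltb from Tnf and 1168 bases separate Tnf from Lta (mm10). Lta encodes the secreted cytokine lymphotoxin alpha. Its level was 82.4, 89.1 and 288 FPKM with IL-2 in libraries 1, 3 and 5, and 13.2, 14.7 and 23.0 FPKM with IL-33 in libraries 2, 4 and 6. All 3 IL-33 libraries lay below all 3 IL-2 libraries, although library 5 was over 3 times as high as the other IL-2 libraries. The fall was 2.89 on the log2(FPKM + 1) scale (SE 0.476, adjusted p = 0.0038, limma), and it held with the close pairs averaged (adjusted p = 0.036, limma).

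Ltb, the membrane-bound partner of lymphotoxin alpha, was the most abundant member under IL-2. It stood at 173, 187 and 473 FPKM with IL-2 and at 83.0, 79.3 and 118 FPKM with IL-33. The groups did not overlap, and library 5 was again the highest. The fall was 1.42 (SE 0.381, adjusted p = 0.0231, limma). The call was lost without IL-33 library 2 (adjusted p = 0.0779, limma), without IL-33 library 4 (0.0792) and with averaged pairs (0.091). Tnf, the gene of the inflammatory cytokine TNF, lay between its neighbours on the chromosome and did not pass. Its values were 104, 114 and 338 FPKM with IL-2 and 51.9, 48.8 and 204 FPKM with IL-33. The groups overlapped because library 6 was about 4 times as high as libraries 2 and 4, while within libraries 1 to 4 and within libraries 5 and 6 the IL-33 side was lower. The log2 difference was -0.97 (SE 0.652, adjusted p = 0.263, limma), and it was called with the batch term (adjusted p = 0.000278, limma) and without library 6 (adjusted p = 0.0359, limma).

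Bcl2a1b and Bcl2a1d encode near-identical copies of the survival protein A1. Their annotated transcripts share 99.1% of aligned bases (GENCODE M21), so the authors' counting could split reads between them, and their separate values are uncertain. Bcl2a1b stood at 151, 156 and 239 FPKM with IL-2 and at 92.3, 74.4 and 113 FPKM with IL-33 (log2 -0.95, SE 0.218, adjusted p = 0.0135, limma). Bcl2a1d stood at 124, 119 and 187 FPKM and at 77.8, 64.0 and 98.8 FPKM (log2 -0.82, SE 0.218, adjusted p = 0.0226, limma). The groups overlapped in neither gene. The sum with the third copy, Bcl2a1a, does not depend on that split, and it was 342, 343 and 538 FPKM against 214, 174 and 268 FPKM, again without overlap. Both calls were lost without IL-33 library 4 (adjusted p = 0.05001 for Bcl2a1b and 0.0772 for Bcl2a1d, limma), and that of Bcl2a1d also without library 2 (0.0707). With averaged pairs neither was called (adjusted p = 0.073 for Bcl2a1b and 0.0997 for Bcl2a1d, limma).

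Icam1, the gene of an adhesion molecule, stood at 61.0, 65.6 and 88.0 FPKM with IL-2 and at 31.2, 33.1 and 54.8 FPKM with IL-33. The IL-33 libraries were all lower (log2 -0.86, SE 0.234, adjusted p = 0.0242, limma). The call was lost without IL-2 library 5 (adjusted p = 0.0615, limma), IL-33 library 2 (0.0834) or IL-33 library 4 (0.0852), and with averaged pairs (0.127). Cd83, an activation marker, stood at 6.59, 7.56 and 16.2 FPKM with IL-2 and at 3.92, 2.84 and 6.31 FPKM with IL-33. The groups did not overlap, but the difference of -1.01 missed the threshold (SE 0.353, adjusted p = 0.0561, limma). It passed with the batch term (0.000806), without IL-2 library 1 (0.046) and without IL-33 library 6 (0.0284). Traf1, a TRAF protein gene induced by NF-kB, had a log2 difference of -0.33 (adjusted p = 0.26, limma), and the apoptosis inhibitor gene Birc3 had -0.04 (adjusted p = 0.823, limma). Both overlapped between the groups. Traf1 was called lower without IL-33 library 6 (adjusted p = 0.0291, limma) and with the batch term (0.00677), but not with averaged pairs and the batch term (0.0957). The sign of Birc3 turned with median-of-ratios and with common-sum scaling. Tnfaip2 was below the filter, at 0.0222, 0.0216 and 0 FPKM with IL-2 and 0 in all IL-33 libraries (exact permutation p = 0.4).

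**Figure D2:**
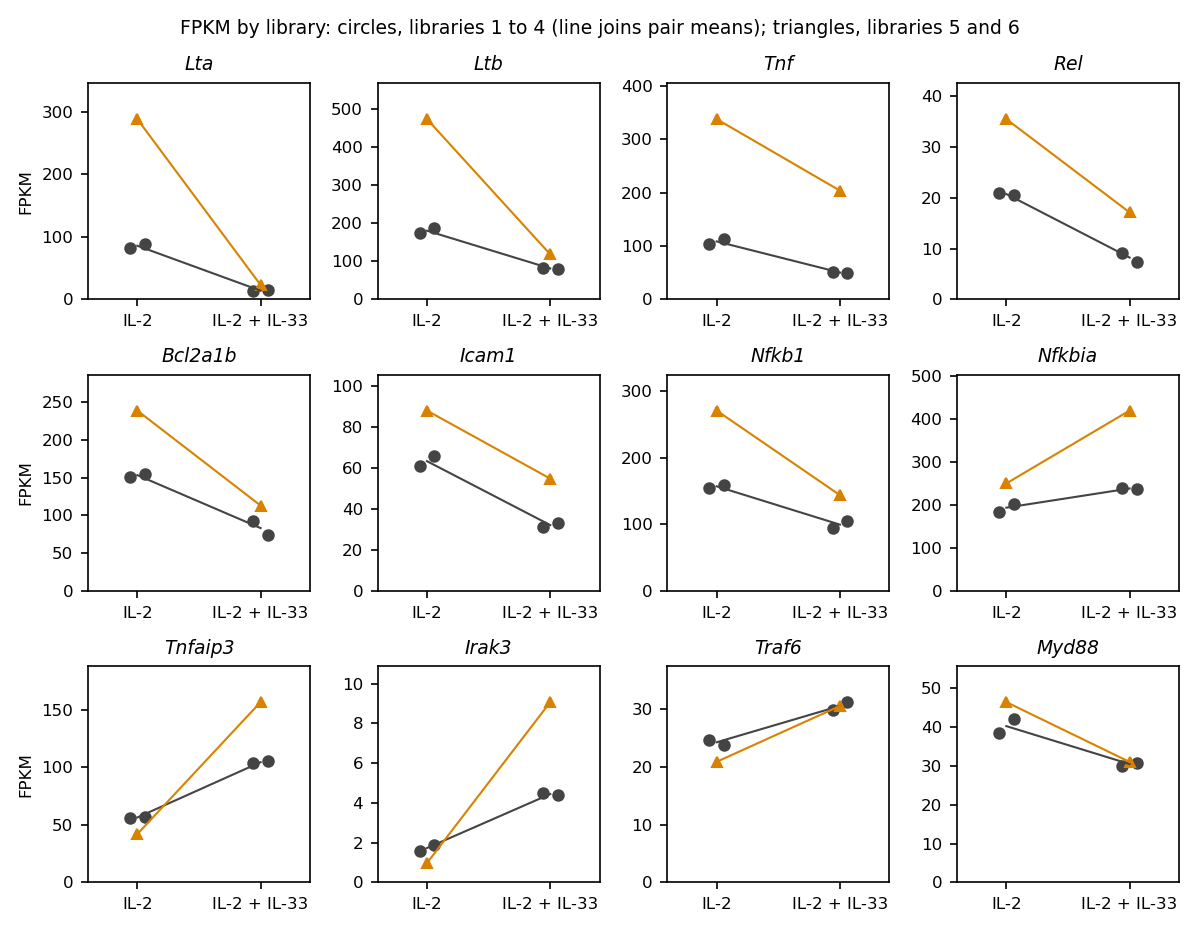
FPKM (y axis, from 0) in each Th2 library with IL-2 or with IL-2 and IL-33 (x axis) for 12 members. Circles are libraries 1 to 4 with a line between the pair means, triangles are libraries 5 and 6; in both sets Lta, Ltb, Rel and Icam1 slope down and Tnfaip3 and Irak3 slope up, while libraries 5 and 6 lie higher for most genes.

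The NF-kB subunits are the proteins that bind DNA. Rel, the lymphocyte subunit c-Rel, stood at 21.0, 20.6 and 35.5 FPKM with IL-2 and at 9.20, 7.30 and 17.1 FPKM with IL-33. The IL-33 libraries were all lower (log2 -1.16, SE 0.324, adjusted p = 0.0261, limma). The call was lost without IL-2 library 5 (adjusted p = 0.0622, limma), IL-33 library 2 (0.0882) or IL-33 library 4 (0.0849), and with averaged pairs (0.122). Averaged pairs with the batch term gave 0.0112. Nfkb1, which encodes p105 and its product p50, stood at 155, 160 and 271 FPKM with IL-2 and at 94.7, 104 and 144 FPKM with IL-33. The groups did not overlap, and the difference of -0.74 lay just inside the threshold (SE 0.249, adjusted p = 0.0496, limma). Median-of-ratios scaling, common-sum scaling and averaged pairs (adjusted p = 0.154, limma) each removed the call. So did leaving out IL-2 library 3 (0.0596), IL-2 library 5 (0.0829), IL-33 library 2 (0.151) or IL-33 library 4 (0.139). It was kept in 8 of 18 alternatives.

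Rela, the activating subunit p65, stood at 70.2, 72.7 and 87.4 FPKM against 51.6, 55.5 and 72.8 FPKM (log2 -0.36, adjusted p = 0.0914, limma). Relb and Nfkb2, the pair of the alternative NF-kB pathway, had log2 differences of -0.47 (adjusted p = 0.113) and -0.21 (adjusted p = 0.614, limma). Libraries 5 and 6 were nearly equal for Nfkb2, at 145 and 144 FPKM, whereas libraries 1 and 3 (87.3 and 88.4 FPKM) lay above libraries 2 and 4 (68.1 and 72.9 FPKM). All 5 subunits were lower with IL-33 within libraries 1 to 4 and within libraries 5 and 6, beside 51.1% of all genes. For Nfkb2 the log2 difference within libraries 5 and 6 was only -0.0098. Rela and Relb were called lower with the batch term (adjusted p = 0.00381 and 0.0104, limma) and without IL-33 library 6 (0.0143 and 0.00315). With averaged pairs and the batch term neither was called (0.0587 and 0.135).

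Among the inhibitors and feedback genes, Tnfaip3 encodes A20, a ubiquitin-editing enzyme that shuts off signals to IKK. It stood at 56.0, 57.0 and 42.0 FPKM with IL-2 and at 104, 105 and 157 FPKM with IL-33. Every IL-33 library was above every IL-2 library, and the 2 sets of libraries lay in opposite order in the 2 groups: library 5 was the lowest and library 6 the highest. The rise was 1.21 (SE 0.192, adjusted p = 0.00325, limma), and it held with averaged pairs (0.0308). Its motif matches stand in the sequence above. Irak3 encodes IRAK-M, an IRAK without kinase activity that blocks IRAK signalling. It stood at 1.57, 1.89 and 0.972 FPKM with IL-2 and at 4.49, 4.40 and 9.08 FPKM with IL-33, again with library 5 lowest and library 6 highest. The rise was 1.45 (SE 0.268, adjusted p = 0.00588, limma; 0.0398 with averaged pairs), on a scale that understates differences at such low levels.

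Bcl3, a nuclear IkB protein that binds p50 and p52 dimers, stood at 34.2, 33.6 and 28.2 FPKM with IL-2 and at 39.1, 42.7 and 46.9 FPKM with IL-33 (log2 0.41, SE 0.108, adjusted p = 0.0208, limma). The groups did not overlap. The call was lost without IL-33 library 4 (adjusted p = 0.0668, limma) and with averaged pairs (0.089). It was also lost with averaged pairs and the batch term (0.0714) and in the model over the 12 mouse libraries. Nfkbia was the most abundant member under IL-33. It stood at 185, 203 and 250 FPKM with IL-2 and at 239, 237 and 419 FPKM with IL-33. Library 5 lay above libraries 2 and 4, so the groups overlapped, and the difference of 0.45 did not pass (adjusted p = 0.168, limma). With the batch term it did (adjusted p = 0.0114, limma), but not with averaged pairs and the batch term (0.0703).

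Tnip2, a partner of A20, moved in the opposite direction to A20 itself. It stood at 18.1, 18.5 and 18.7 FPKM with IL-2 and at 13.8, 13.4 and 14.4 FPKM with IL-33, a fall of 0.39 with little spread within either group (SE 0.0716, adjusted p = 0.0059, limma; 0.0905 with averaged pairs). The other A20 partner gene, Tnip1, had a log2 difference of -0.30 (adjusted p = 0.427), and the IkB genes Nfkbib and Nfkbie had -0.25 (0.392) and -0.21 (0.589, limma). Nfkbiz, the gene of the nuclear protein IkB-zeta, gave opposite directions in the 2 sets of libraries. It stood at 23.4 and 22.4 FPKM in libraries 1 and 3 and at 16.1 and 15.4 FPKM in libraries 2 and 4, but at 25.1 FPKM in library 5 and 39.4 FPKM in library 6 (adjusted p = 0.76 over all 6, limma). Without library 6, Nfkbiz and Tnip1 were called lower (adjusted p = 0.00371 and 0.0356, limma). With the batch term Tnip1, Nfkbib and Nfkbie were called lower (0.0321, 0.012 and 0.0244), and with averaged pairs and the batch term none of these 3 was (0.222, 0.0812 and 0.12).

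The adaptors and kinases differed less in size. Myd88, the adaptor that links the receptor to the IRAK kinases, stood at 38.5, 42.0 and 46.4 FPKM with IL-2 and at 30.1, 30.9 and 31.0 FPKM with IL-33 (log2 -0.45, SE 0.0875, adjusted p = 0.00734, limma). Traf6, the ubiquitin ligase of the pathway, stood at 24.6, 23.9 and 20.9 FPKM against 29.9, 31.2 and 30.5 FPKM (log2 0.39, SE 0.0856, adjusted p = 0.0114, limma). The groups overlapped for neither gene, so the adaptor fell and the ligase rose. With averaged pairs, neither call was kept (0.0668 for Myd88 and 0.0879 for Traf6, limma).

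The IKK genes Chuk and Ikbkg were called lower by similar small amounts, -0.26 each (adjusted p = 0.0369 and 0.0388, limma), and the third IKK gene, Ikbkb, was not called (-0.09, adjusted p = 0.374). Chuk stood at 30.9, 29.4 and 27.7 FPKM against 24.4, 25.6 and 22.9 FPKM, and Ikbkg at 7.31, 7.12 and 7.78 FPKM against 6.17, 6.14 and 5.71 FPKM. Both calls were lost with median-of-ratios and common-sum scaling and with averaged pairs (adjusted p = 0.194 for Chuk and 0.181 for Ikbkg, limma). The call of Chuk was also lost without any 1 library other than IL-2 library 5 (adjusted p 0.0666 to 0.129, limma), and that of Ikbkg without any 1 library (0.0674 to 0.0985). The receptor-proximal kinase genes Irak1, Irak4 and Irak2 had log2 differences of -0.20, -0.32 and 0.19, and none passed (adjusted p = 0.14, 0.119 and 0.59, limma). Neither did Map3k7 (-0.17, adjusted p = 0.237, or 0.0482 without IL-33 library 6), the TRAF genes Traf2 (-0.03, 0.835) and Traf3 (0.13, 0.34), or Birc2, a ubiquitin ligase of TNF receptor signalling (-0.16, 0.221). The signs of Traf2 and Ikbkb turned with median-of-ratios and with common-sum scaling.

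The members were high in libraries 5 and 6 in both groups. Library 5 lay above libraries 1 and 3 for 30 of the 35 members tested (85.7%, against 48.8% of all genes), and library 6 lay above libraries 2 and 4 for 31 (88.6%, against 53.7%). Both held for 28 members (80.0%, against 33.4% of all genes), including all 9 targets and all 5 subunits. Library 5 was the highest of the 6 for 24 members (68.6%, against 36.1% of all genes). The cause was not tested. The direction with IL-33 was the same within libraries 1 to 4 and within libraries 5 and 6 for 32 of 35 members (91.4%, against 82.9% of all genes), with 25 lower and 7 higher in both. Nfkbiz, Birc3 and Traf2 were the exceptions. The size differed between the sets: the log2 difference of Lta was -2.54 in the first and -3.59 in the second, and that of Tnfaip3 was 0.88 and 1.88. These differences between sets rest on 1 library per group in the second set and were not tested.

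Among the receptor genes, Il1rl1, the ST2 gene, stood at 57.9, 52.1 and 44.5 FPKM with IL-2 and at 517, 515 and 506 FPKM with IL-33, with no overlap (log2 3.30, SE 0.108, adjusted p = 7.09e-06, limma). Il1rap, its shared partner chain, stood at 7.44, 7.62 and 14.1 FPKM against 4.23, 3.40 and 6.54 FPKM (log2 -0.89, SE 0.28, adjusted p = 0.0398, limma). Its call was lost with averaged pairs (0.139), with common-sum scaling (0.0575), with no filter (0.0861) and without IL-2 library 3 (0.0505), IL-2 library 5 (0.0728), IL-33 library 2 (0.115) or IL-33 library 4 (0.129). Sigirr, an inhibitory receptor of the same family, had a difference of 0.23 (adjusted p = 0.372, limma, or 0.0143 without IL-2 library 5). Il33 itself was below the filter, at no more than 0.249 FPKM in any library (exact permutation p = 0.1, the limit for groups of this size).

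Of the other pathway genes listed, 55 of 69 passed the filter, and 7 were called higher and 17 lower. These are 43.6% of those tested, close to the 42.1% of all genes. The signalling genes had 3 of 22 higher and 6 lower, the inhibitors 1 of 11 higher and 1 lower, and the targets 2 of 19 higher and 9 lower, with no test between the lists (16.3% of all genes were called higher and 25.7% lower). The largest falls were of Usp18, a gene known for restraining interferon signals (log2 -3.73), and of the chemokine genes Cxcl10 (-3.65) and Ccl5 (-2.48). The cytokine gene Il6 (-1.89) stood at 57.3, 61.5 and 47.5 FPKM with IL-2, at no more than 9.07 FPKM in IL-33 libraries 2 and 4, and at 42.0 FPKM in library 6, close to the IL-2 libraries. Its call was lost with averaged pairs (adjusted p = 0.217, limma), with averaged pairs and the batch term (0.171), with no filter (0.083) and without any 1 library other than library 6 (0.0636 to 0.121). Tapbp, Cd40, Cd44 and Tnfaip8 fell by 1.38, 1.18, 1.04 and 1.03, and of these Cd40 lost its call with averaged pairs (adjusted p = 0.0727, limma) and without IL-33 library 2 (0.0517) or 4 (0.0507). The rises past 1 were of Ptgs2, the cyclooxygenase-2 gene (2.86), the early response gene Ier3 (2.21) and Tax1bp1, an adaptor of A20 (1.41). Ptgs2 stood at 1.65, 1.95 and 0.17 FPKM with IL-2 and at 12.7, 13.1 and 17.1 FPKM with IL-33. Ptgs2 and Ier3 are also listed as targets, so that list, like the members, did not go in 1 direction.

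The summed level of 9 T cell markers was 1348 to 1564 FPKM with IL-2 and 2176 to 2262 FPKM with IL-33, with 6 of the 8 tested called higher and 1 lower, and Cd8a was at 0 in the IL-2 group. The 7 B and plasma cell markers summed to at most 2.15 FPKM, the 8 neutrophil markers to at most 0.926 FPKM and the 10 macrophage markers to at most 11.6 FPKM, with Marco and C1qa at 0 in both groups. The 7 dendritic cell markers summed to 26.0 to 29.4 FPKM with IL-2 and 27.3 to 41.2 FPKM with IL-33, most of it Ccr7. Summed endothelial markers were 23.8 to 41.7 FPKM and 13.2 to 19.7 FPKM, most of it Pecam1, and Tek was at 0 with IL-2 and Kdr and Vwf with IL-33. The 6 eosinophil markers summed to 0.67 to 1.73 FPKM with IL-2 and 5.82 to 8.02 FPKM with IL-33, most of it Ccr3, which was called higher, while Prg2, Epx and Ear2 were at 0 in both groups. The 7 epithelial markers summed to 6.05 to 10.2 FPKM and 2.94 to 3.74 FPKM, led by Epcam, and the 1 tested was called lower. The part of these marker shifts in the results was not tested.

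Levels set the Th2 cells and the lung apart. The tables were normalised separately, so this is a description with no test. The median member stood at 32.6 ± 1.10 FPKM in Th2 cells with IL-2 (SD over 3 libraries) and at 13.5 ± 0.187 FPKM in wild-type lung. For 26 of 36 members every IL-2 library of Th2 cells lay above every wild-type lung library, for 7 the order was the reverse, and 3 overlapped. Neither these counts nor these medians were computed over all genes. A difference particular to the members therefore cannot be told from a general difference. Among members higher in the Th2 cells, the widest gaps were those of Lta (154-fold) and Tnf (145-fold), which stood at 0.992 and 1.28 FPKM in wild-type lung. Rel was 8.08-fold higher and Ltb 8.12-fold higher in the Th2 cells. The members higher in lung were Tnfaip2, Icam1, Cd83, Irak1, Irak2, Irak3 and Birc2. Tnfaip2 stood at 11.7 FPKM in lung and under 0.03 FPKM in the T cells, and Icam1, at 159 FPKM, was the most abundant member in lung. The libraries overlapped for Irak4 and for the IKK genes Ikbkb and Ikbkg.

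**Figure D3:**
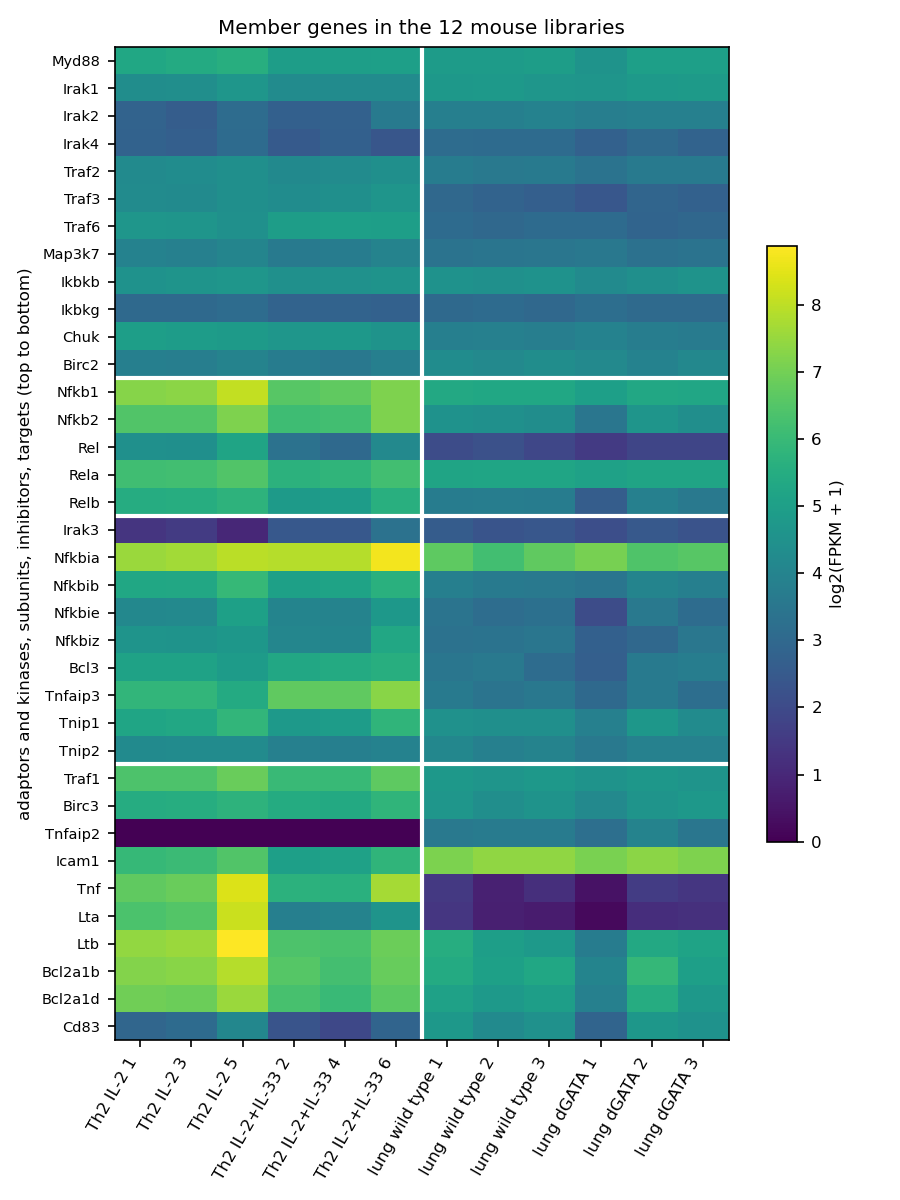
Log2(FPKM + 1) of the 36 members (rows, by role from adaptors at the top to targets at the bottom) in the 12 mouse libraries (columns). Brighter cells are higher; Tnf and Lta are bright in the Th2 cells and dark in the lung, Tnfaip2 shows the reverse, and dGATA lung library 1 is darker than wild type for the targets.

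In the eosinophil tables the question was whether amphiregulin, known as a ligand of the epidermal growth factor receptor, changed the same genes. Of 34 members, all passed the filter and limma called 0, beside 0.206% of all 12617 genes tested. The unadjusted p was below 0.05 for 0 members. With the number as a block, limma again called 0, beside 1.12% of all genes called. In that fit the unadjusted p was below 0.05 for 3 of 34 members, beside 1420 of the 12617 genes. The median log2 difference of the members was 0.00 (17 above 0 and 17 below), and common-sum scaling turned the sign of 9. Only TNFAIP3 and TNFAIP2 did not overlap between the groups (2 of 34, beside 6.7% of all genes). TNFAIP3 stood at 20.9, 20.8 and 21.2 FPKM without amphiregulin and at 16.7, 19.8 and 9.07 FPKM with it, in the order of the numbers 2, 3 and 4 (log2 -0.50, 95% interval -1.23 to 0.22, adjusted p = 0.999, limma). TNFAIP2 stood at 59.8, 45.2 and 51.7 FPKM and at 41.4, 41.3 and 34.8 FPKM (log2 -0.40, interval -0.90 to 0.10). The intervals of both reached across 0. BCL2A1, the human counterpart of the mouse Bcl2a1 copies, is listed with the other pathway genes. Its mean was 62.3 ± 14.0 FPKM without amphiregulin and 32.0 ± 2.20 FPKM with it, without overlap and without a call. The log2 difference was -0.92 (interval -1.48 to -0.36, unadjusted p = 0.00605, adjusted p = 0.8975, limma).

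Several targets differed more between numbers than between treatments. CD83 stood at 42.7, 59.96 and 7.73 FPKM without amphiregulin and at 79.3, 97.2 and 12.7 FPKM with it, so it was higher with amphiregulin within each number while number 4 stayed far below the others (log2 0.74, interval -1.60 to 3.08). ICAM1 likewise stood at 18.6, 11.95 and 6.76 FPKM and at 21.9, 26.0 and 10.8 FPKM. TNF stood at 10.3, 7.81 and 2.84 FPKM and at 14.0, 15.8 and 2.69 FPKM, and BIRC3 at 10.3, 20.7 and 3.98 FPKM and at 22.8, 17.7 and 3.60 FPKM. For both, number 4 was the lowest in each group. Within all 3 numbers, 3 members were higher with amphiregulin (CD83, ICAM1 and IKBKG) and 7 lower (TNFAIP3, TNFAIP2, IRAK2, IRAK3, NFKB1, NFKBIA and TNIP2), or 8.82% and 20.6%, beside 17.6% and 14.9% of all genes. The most abundant member was LTB, at 213, 193 and 234 FPKM without and 175, 198 and 267 FPKM with amphiregulin. MYD88 and IRAK1 were the highest adaptors and kinases, and both were highest in number 4: MYD88 stood at 70.5, 58.5 and 133 FPKM without amphiregulin and at 58.1, 60.01 and 116 FPKM with it.

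**Figure D4:**
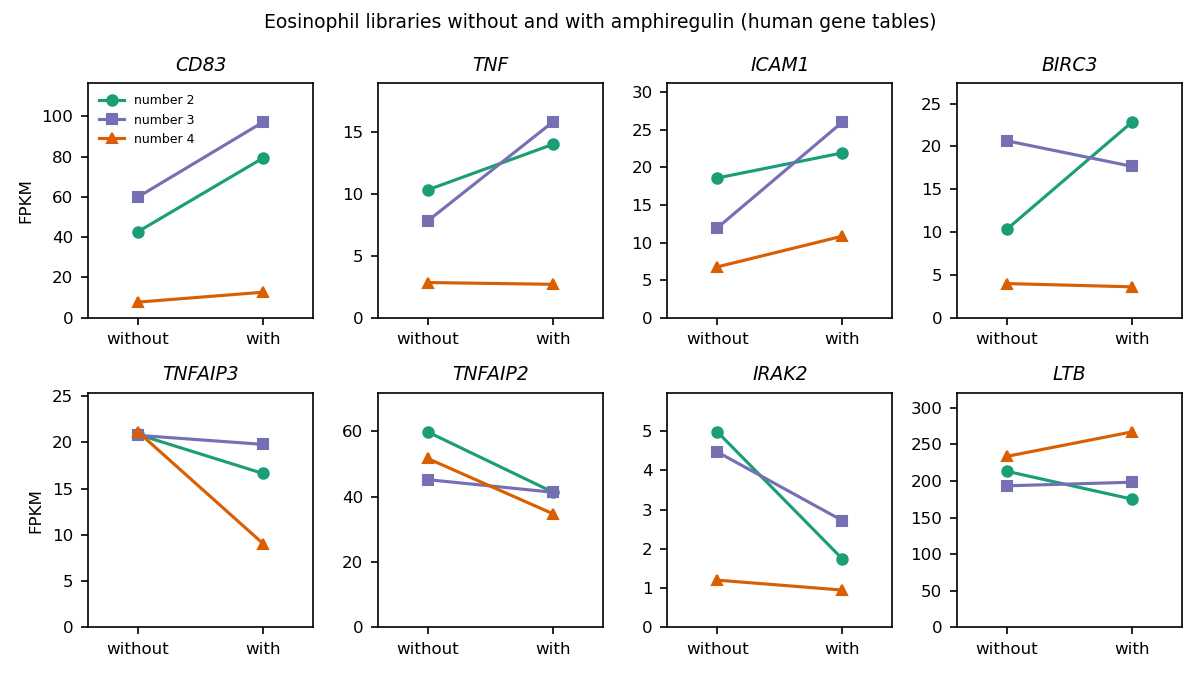
FPKM (y axis, from 0) in each eosinophil library without or with amphiregulin (x axis) for 8 members, with lines joining libraries of equal number. CD83 and ICAM1 slope up and TNFAIP3, TNFAIP2 and IRAK2 slope down for all 3 numbers, and number 4 is the lowest for CD83, TNF, ICAM1, BIRC3 and IRAK2.

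Among the eosinophil receptor genes, IL1RL1 stood at 7.67, 24.8 and 24.4 FPKM without amphiregulin and at 7.07, 12.4 and 22.7 FPKM with it. IL1RAP stood at 6.24, 7.997 and 14.2 FPKM and at 19.6, 14.8 and 19.1 FPKM, with no overlap but no call (log2 0.91, adjusted p = 0.999, limma), and SIGIRR likewise did not overlap at 43.1, 36.2 and 33.4 FPKM and 30.3, 30.1 and 18.3 FPKM (adjusted p = 0.999). IL33 was listed at 0 in all 6. Of 59 other pathway genes tested, limma called 0, with 5 at an unadjusted p below 0.05. With the block it called CD40, a costimulatory receptor gene, higher (2.67, 2.09 and 0.818 FPKM against 26.5, 32.7 and 3.99 FPKM, adjusted p = 0.0315) and SOD2, the mitochondrial superoxide dismutase gene, lower (109, 122 and 41.5 FPKM against 30.2, 40.9 and 21.6 FPKM, adjusted p = 0.0342). Other cells' markers were present in these libraries. Eosinophil markers summed to 1376 to 4732 FPKM without amphiregulin and 1120 to 2780 FPKM with it, neutrophil markers to 8119 to 21460 and 6763 to 14420 FPKM, macrophage markers to 499.6 to 2411 and 365 to 1166 FPKM and T cell markers to 233 to 506 and 136 to 289 FPKM. Dendritic cell markers, led by ITGAX, summed to 128 to 233 FPKM without and 274 to 351 FPKM with amphiregulin, without overlap, and 0 of the 5 tested were called. Their part in the members' values was not tested.

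In the OVA-treated lungs, 0 of 36 members were called between dGATA and wild type by limma, beside 0.0947% of all 13727 genes tested. At an unadjusted p below 0.05 there were 0 members, beside 939 of the 13727 genes. The estimates leaned one way: 32 of 36 lay below 0, with a median log2 difference of -0.10 beside -0.03 for all genes. Under median-of-ratios scaling 26 lay below 0, with an all-gene median of 0.01. Under common-sum scaling 35 did, with an all-gene median of -0.13. The share of all genes below 0 was not counted. Without dGATA library 1, 19 of 36 lay below 0 and the median was -0.01, beside -0.02 for all genes. That library was the lowest of the 6 for 30 of 36 members (83.3%), beside 30.6% of all genes. Its median over the members was -0.37 on the log2 scale relative to the wild-type mean, against 0.05 and -0.06 in dGATA libraries 2 and 3, and over the 10 targets it was -0.73. Nfkbia was the exception among the abundant members, with its highest lung value, 133 FPKM, in dGATA library 1, beside 102, 71.6 and 105 FPKM in wild type and 86.9 and 94.5 FPKM in the other dGATA lungs.

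Cd83 is an example. It stood at 25.6, 17.9 and 21.4 FPKM in wild type and at 6.33, 25.3 and 22.1 FPKM in dGATA lungs, so that dGATA libraries 2 and 3 lay within the wild-type range (log2 -0.44, interval -1.61 to 0.73). Ltb stood at 45.3, 30.5 and 26.7 FPKM in wild type and at 12.3, 40.3 and 34.8 FPKM in dGATA lungs. Relb, which barely varied in wild type at 12.4, 12.5 and 12.3 FPKM, stood at 5.23, 13.6 and 10.9 FPKM. The Bcl2a1 copies summed to 105, 84.4 and 98.3 FPKM in wild type and to 41.3, 143 and 80.7 FPKM in dGATA lungs, with library 1 the lowest and library 2 the highest of the 6. Adaptors and kinases in dGATA library 1 were closer to wild type, with a median of -0.10.

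**Figure D5:**
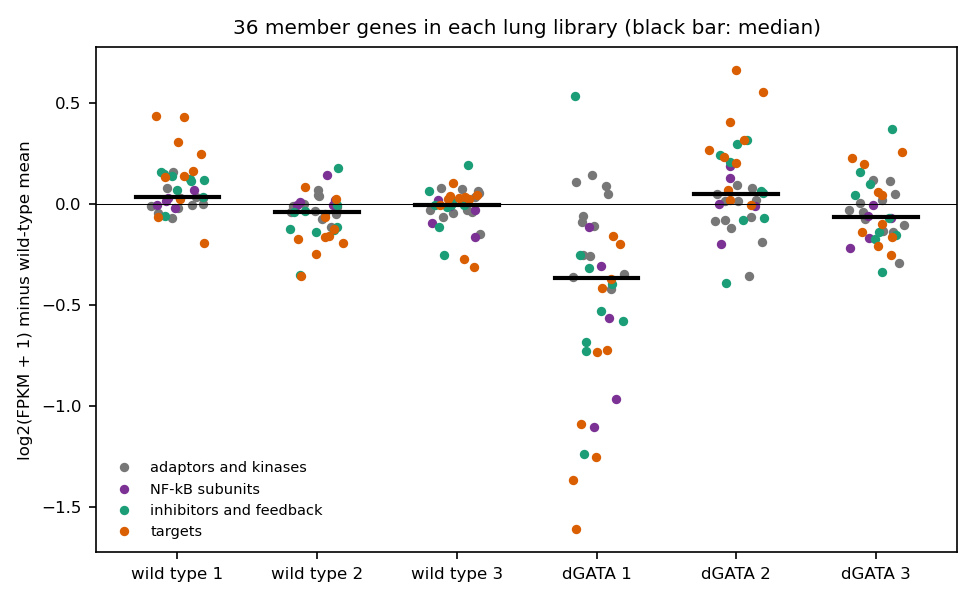
Log2(FPKM + 1) minus the wild-type mean (y axis) for the 36 members in each lung library (x axis), coloured by role, with the median as a black bar. The median of dGATA library 1 is -0.37, while the medians of the other 5 libraries lie between -0.06 and 0.05.

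Markers of several leukocytes were low in the same library. Its 9 T cell markers summed to 65.2 FPKM, against 100.1 to 168 FPKM in the other 5 lungs, its B and plasma cell markers to 72.0 FPKM against 168 to 463, its macrophage markers to 618 FPKM against 1356 to 1978 and its dendritic cell markers to 51.3 FPKM against 98.0 to 225. Its neutrophil markers, at 179 FPKM, lay within the range of the other lungs (127 to 239). Its epithelial markers, led by Scgb1a1, summed to 121500 FPKM, the highest of the 6. Among eosinophil markers, Ccr3 and Prg2 were called lower in dGATA lungs by limma (5.36 to 0.125 FPKM, adjusted p = 0.00326, and 9.70 to 0.428 FPKM, adjusted p = 0.0427), and Epx was at 0 in all 3. The summed level of the 6 eosinophil markers was 264 to 374 FPKM in wild type and 126 to 317 FPKM in dGATA lungs, most of it Ear2. The part of these markers in the members' values was not tested. Only Irak4 and Rel did not overlap between the groups (2 of 36, beside 14.1% of all genes). Irak4, the first kinase of the receptor complex, stood at 7.90, 7.66 and 7.54 FPKM in wild type and at 5.77, 7.34 and 6.11 FPKM in dGATA lungs (log2 -0.24, adjusted p = 0.726, limma). Rel stood at 3.20, 3.61 and 2.72 FPKM and at 1.82, 2.63 and 2.59 FPKM (log2 -0.32, adjusted p = 0.738, limma). Icam1, on which lung and T cells differed in the other direction, stood at 138, 168 and 170.0 FPKM and at 138, 160.2 and 144 FPKM.

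The lung expressed the ligand, Il33, at 49.8, 61.7 and 60.4 FPKM in wild type and at 33.0, 88.4 and 64.5 FPKM in dGATA mice, with overlap (adjusted p = 0.998, limma). Il1rl1 stood at 4.52, 4.47 and 3.62 FPKM in wild type and at 1.19, 2.63 and 3.497 FPKM in dGATA lungs, without overlap and without a call (log2 -0.66, interval -1.30 to -0.01, adjusted p = 0.723, limma). The lowest value was again that of dGATA library 1. Il1rap and Sigirr overlapped between the groups. Of 66 other pathway genes tested in the lung, limma called 0, with 3 at an unadjusted p below 0.05, beside 939 of all 13727 genes.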

How the data were processed

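The authors deposited 1 table per library of FPKM values (fragments scaled by transcript length and library size) for each gene entry. Per the submitters' processing notes, they used TopHat 1.3.2, Bowtie 0.12.8, Cufflinks 2.0.2 and mm10. The eosinophil tables list human genes, with a build that no label or header names. Per the labels' protocols, a stranded mRNA kit was used. Entries were summed per symbol, and 138 sex-linked human symbols were left out.

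Genes with at least 1 FPKM in at least 3 of the 6 libraries of a comparison were tested on log2(FPKM + 1) with limma 3.58.1 (trend option) in R 4.3.3. P-values were adjusted by Benjamini-Hochberg over all genes tested, and a gene was called below 0.05. Intervals are 95%. Members under that filter were compared by a two-sided exact permutation test, which cannot go below 0.1. The script was tested on simulated data. The members, their roles and the other pathway lists were chosen with earlier results of these data known. All members were named, as were the IL-33 receptor and ligand genes and BCL2A1. Other pathway genes were named where they were called, did not overlap between groups and differed by at least 1 on the log2 scale, up to 8 in each direction. Outside that rule, Bcl2a1a was named for the sum of the Bcl2a1 copies. CD40 and SOD2 were named in the eosinophils for their calls with the block.

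The deposited tables hold no read counts. Depth in reads was estimated from the steps between low FPKM values of genes with 1 transcript. For the eosinophils, same-numbered libraries deviated together from their group means (r = 0.398, 0.356 and 0.669 across genes, all above 0.1), so a fit blocked on the number is given beside the planned one. In the lung these correlations were -0.286, -0.116 and -0.243, and no pairing was assumed. The alternatives were other pseudocounts and filters, common-sum and median-of-ratios scaling, 1 entry per symbol, leaving out each library, a model over the 12 mouse libraries, Th2 libraries 1 to 4 alone, eosinophil tables without small RNA features and the block. A batch term for Th2 libraries 5 and 6 and averaging of libraries 1 with 3 and 2 with 4 were chosen after seeing the data.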

Additional observations from a re-analysis of the deposited data

How the results depend on the processing

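In the Th2 cells, 4 members were called higher and 11 lower, beside 1680 and 2651 of all 10296 genes. Leaving out 1 library gave 3 to 4 higher and 3 to 17 lower. The lowest count of lower calls, 3, came without IL-33 library 4, 4 without IL-33 library 2, 7 without IL-2 library 5 and 17 without IL-33 library 6. In the same order, those fits called 1482 of 10057, 1618 of 10042, 2015 of 10115 and 3122 of 10034 genes lower. With no filter, 5 of 36 members were called lower, beside 2451 of 16306 genes. With libraries 1 to 4 alone, 20 were called lower, beside 3723 of 10296 genes. With libraries 5 and 6 as a batch term, 19 were, beside 3668. With libraries 1 and 3, and 2 and 4, averaged, 2 were called higher and 1 lower, beside 755 and 674 genes. Tnfaip3 and Lta kept their calls under all 18 alternatives and Irak3 under the 17 in which it was tested. The matching share of all genes was not counted. No call of a member changed sign under any alternative. Common-sum scaling and median-of-ratios scaling each removed the calls of Chuk, Ikbkg and Nfkb1. With no filter, the calls of Ikbkg, Nfkb1, Rel, Icam1, Ltb and Bcl2a1d were lost. The model over the 12 mouse libraries removed those of Bcl3, Bcl2a1b and Bcl2a1d. Averaged pairs with the batch term removed those of Bcl3, Chuk and Ikbkg. Nfkb1 also lost its call with a pseudocount of 0.1 and with a filter of at least 5 FPKM. Other pathway genes called lower in the Th2 cells numbered 17, 7 with the averaged libraries and 8 to 21 on leaving out 1 library, and those called higher numbered 7, with a range of 5 to 8. In the eosinophils and the lung, limma called 0 members under every alternative run. With the replicate block in the eosinophils, 1 other pathway gene, CD40, was called higher (adjusted p = 0.0315, limma) and 1, SOD2, lower (0.0342). Of all 12617 genes, that block called 67 higher and 74 lower. Without the library with amphiregulin of number 4, 1 other pathway gene was called higher, beside 25 of 12477 genes. The range on leaving out a library was 0 to 1. With the replicate block in the lung, 0 members and 0 other pathway genes were called. The common-sum scaling moved the median log2 difference of all genes from 0.02 to 0.20 in the eosinophils, from -0.03 to -0.13 in the lung and from -0.11 to -0.01 in the Th2 cells. Estimated depth was lowest in Th2 libraries 5 and 6, at 8684000 and 9569000 reads. No other depth limit was tested.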
